A study of Mus musculus with 12 samples.

Results

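Klf2, Klf3, Lef1, Tcf7, Bach2, Satb1, Foxp1, Id3 and S1pr1 are 9 genes that keep T cells resting or guide their traffic through lymphoid organs. They were chosen by name for these roles, with earlier results of these data known, and make up 9 of the 49671 genes counted. All 9 passed the filter on low counts and are among the 17977 genes tested, and the lowest count of any of them in a library was 182, for Id3 in a Gclc-mutant iTreg library.

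RNA was sequenced in bulk from regulatory T cells (Tregs), CD4+ T cells that depend on the transcription factor Foxp3 and restrain immune responses, of C57BL/6 mice aged 8 weeks. Gclc codes for the catalytic subunit of the enzyme glutamate-cysteine ligase, which sets the rate of glutathione synthesis. The 4 groups held 3 libraries each: Gclc-mutant nTregs, WT nTregs, Gclc-mutant iTregs and WT iTregs. Tregs called nTregs were sorted from mice and used directly, while iTregs were made in culture from naive CD4+ T cells. The mutant libraries carry the numbers 1, 2 and 4 and the WT libraries 1, 2 and 3. The sources used here do not give the Gclc allele, any Cre driver, the organ of origin or the iTreg culture conditions. Nothing states that the libraries of a group came from separate mice or cultures, and the p-values therefore rest on a spread among libraries that may be technical. Library totals ran from 28707579 to 39886130 counts.

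Resting T cells hold a transcription program that slows division, limits effector differentiation and keeps them moving between blood and lymphoid tissue. Klf2, a zinc finger factor of the Krüppel-like family, drives the gene of the egress receptor S1pr1, and Klf3 is a repressor of the same family that binds similar CACCC boxes. Tcf7 and Lef1 encode the paired high-mobility-group factors TCF1 and LEF1, which act with beta-catenin or with Groucho/TLE corepressors. Bach2 is a leucine zipper repressor that pairs with small Maf proteins and restrains effector genes, Satb1 organises chromatin loops and is needed for Treg development, Foxp1 is a forkhead factor that keeps naive T cells quiet and can pair with Foxp3, and Id3 binds and blocks E proteins. T cell activation is known to switch many of these genes down.

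Upstream sequence was matched in RefSeq (GRCm38.p6) for 8 of the 9 genes and is shown for 4, because Klf2 and Klf3 had the largest mutant-to-WT differences in iTregs and nTregs and because Lef1 and Satb1 changed in both kinds of Treg. Each sequence ends at the first base before the more upstream of the RefSeq and deposited gene starts. Capitals mark a CACCC box (or GGGTG, its reverse complement) and, in Klf2, a match to the MEF2 pattern, CTA and TAG with any 4 bases between, which was searched for after the Klf2 sequence had been read. The stretches are chr8:72318812-72319032 (plus strand) for Klf2, chr5:64803271-64803387 (plus strand) for Klf3, chr3:131110073-131110322 (plus strand) for Lef1 and chr17:51833291-51833540 (minus strand) for Satb1.
Klf2: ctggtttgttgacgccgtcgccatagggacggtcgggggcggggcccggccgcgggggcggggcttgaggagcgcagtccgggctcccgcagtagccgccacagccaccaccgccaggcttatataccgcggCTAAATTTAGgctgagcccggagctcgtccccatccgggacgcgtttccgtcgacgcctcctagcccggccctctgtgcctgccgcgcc
Klf3: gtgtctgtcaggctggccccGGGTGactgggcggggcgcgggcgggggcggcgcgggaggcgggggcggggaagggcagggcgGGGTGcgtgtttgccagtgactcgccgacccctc
Lef1: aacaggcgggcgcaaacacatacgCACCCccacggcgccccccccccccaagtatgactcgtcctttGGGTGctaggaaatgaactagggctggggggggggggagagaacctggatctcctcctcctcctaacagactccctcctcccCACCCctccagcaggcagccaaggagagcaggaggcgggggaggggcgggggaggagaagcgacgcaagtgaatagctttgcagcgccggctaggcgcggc
Satb1: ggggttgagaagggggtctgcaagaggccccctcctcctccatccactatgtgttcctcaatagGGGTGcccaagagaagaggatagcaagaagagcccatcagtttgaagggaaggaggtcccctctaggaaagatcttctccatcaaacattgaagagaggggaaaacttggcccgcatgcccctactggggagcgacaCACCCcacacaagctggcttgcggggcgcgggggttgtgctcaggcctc

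The Klf3 stretch held 2 CACCC boxes, the Lef1 stretch 3 and the Satb1 stretch 2. The motifs were searched on both strands in windows of 250 bases before to 50 bases after the RefSeq starts. Where a gene had several windows (5 for Satb1, 4 for Lef1, 3 for Foxp1, 2 for Tcf7), only that nearest the deposited gene start was read. The RefSeq start lay 178631 bases downstream of the deposited start for Bach2, 1728 bases downstream for Foxp1 and 325 bases downstream for Id3. Their windows therefore do not describe the sequence before the deposited starts. A CACCC box lay in the windows of 7 of the 8 genes, with Bach2 the exception, and in 57.5% of all 32851 windows. CTTTGA, the core bound by TCF and LEF factors, lay in the window of Bach2 alone and in 16.003% of all windows. GTAAACA, bound by FOXO and FOXP factors, and TGACTCA, bound by BACH and AP-1 factors, lay in 0 of the 8 windows, against 3.65% and 5.20% of all windows. The MEF2 pattern lay in the Klf2 window alone, against 3.69% of all windows. These counts describe letters in a short window and no binding was measured.

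Levels are given as CPM, a gene's count relative to the size of its library after TMM scaling. Gclc itself stood at 45.8, 41.7 and 43.2 CPM in mutant nTregs, against 78.7, 79.0 and 70.8 in WT nTregs. It stood at 18.8, 21.0 and 19.03 CPM in mutant iTregs, against 56.5, 53.2 and 51.9 in WT iTregs, so it was lower in the mutant libraries of both kinds. Foxp3 read 135, 181 and 217 CPM in mutant nTregs against 610.5, 564 and 559 in WT nTregs, and 75.5 to 107 CPM in mutant iTregs against 287 to 300.4 in WT iTregs. None of 16 T cell and Treg markers was at 0 in any group. Markers of other cells were read in the sorted nTregs: 13 CD8 T and NK cell markers summed to 1674, 256 and 224 CPM in mutant nTreg libraries 1, 2 and 4, against 89.9 to 103 CPM in WT nTregs, 130.1 to 169 in mutant iTregs and 96.5 to 142 in WT iTregs. Cd8a alone reached 219, 19.1 and 27.2 CPM in the same mutant nTreg libraries, against 3.70 to 6.36 in WT nTregs. B cell markers summed to 539.7 to 896 CPM in mutant nTregs and 615 to 908 in WT nTregs, against at most 79.6 in iTregs. Myeloid markers (11 genes) summed to 49.1 to 71.3 CPM in mutant nTregs and 53.8 to 56.3 in WT nTregs, and erythroid markers to 180.1 to 904 CPM in mutant nTregs and 111 to 389 in WT nTregs. The part of these cells in the results was not tested, and each nTreg result was also computed without mutant nTreg library 1. In bulk RNA, fewer cells of a type and less RNA per cell cannot be told apart.

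**Figure D1:**
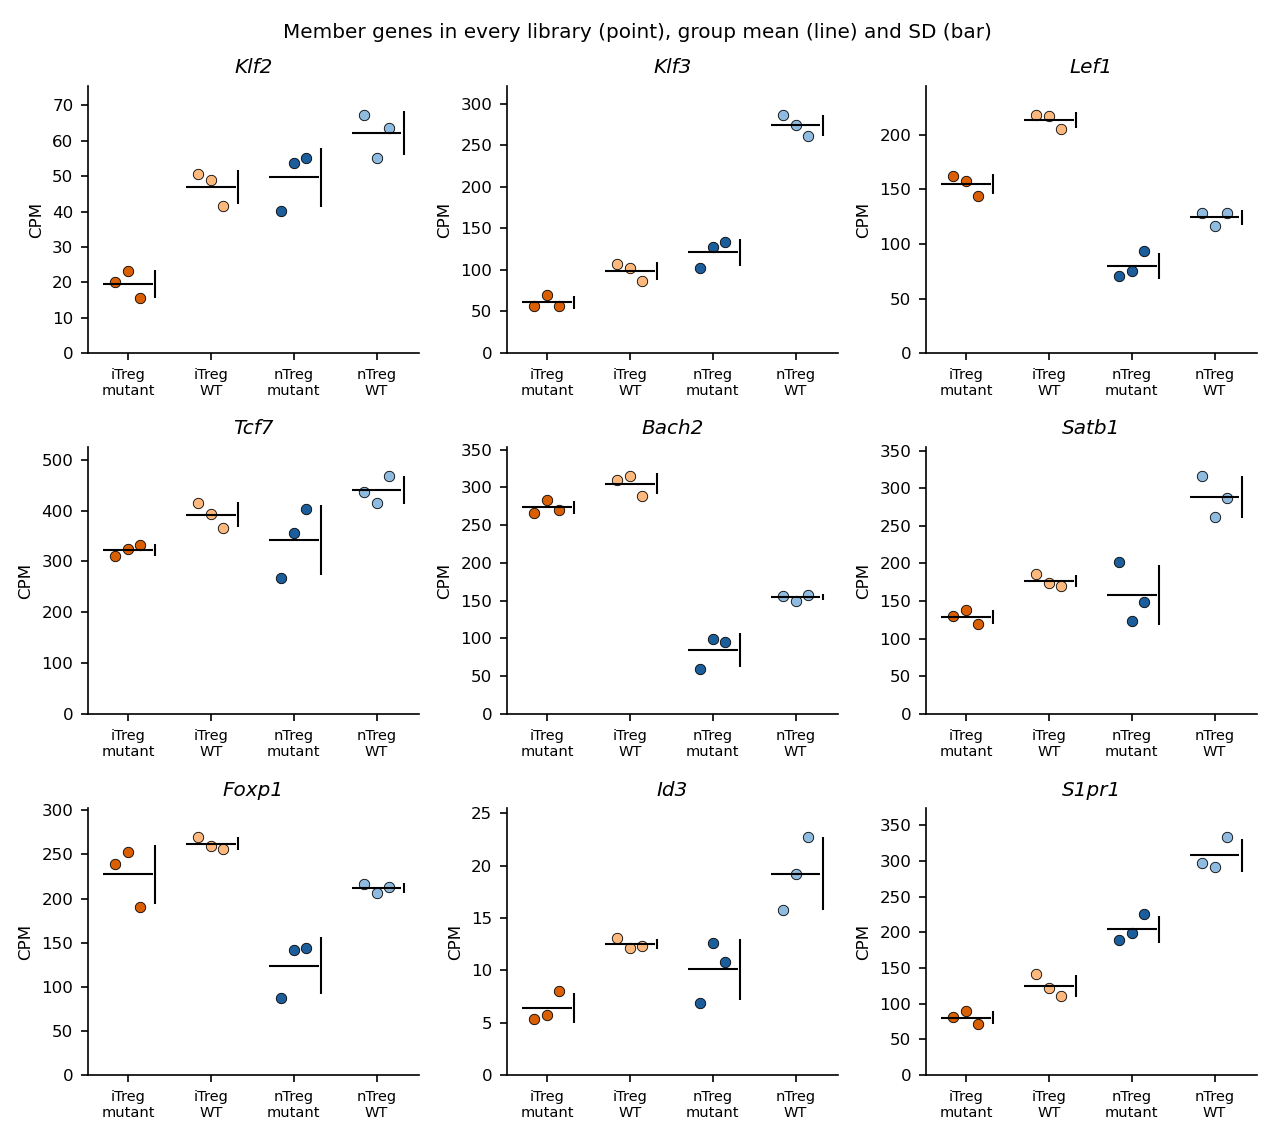
Levels of the 9 genes in CPM (each panel from 0) in each library, with a dot per library, a horizontal line at the group mean and a vertical bar for the SD, for mutant iTregs, WT iTregs, mutant nTregs and WT nTregs. Within each kind of Treg every mutant dot lies below every WT dot for all 9 genes, a separation not counted over all tested genes. The ratio of means is lowest for Klf3 in nTregs, at 121 against 274 CPM, and for Klf2 in iTregs, at 19.6 against 47.1 CPM.

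In nTregs, 8 of the 9 genes were lower in the mutant by edgeR's quasi-likelihood test with Benjamini-Hochberg adjustment at 0.05, and Klf2 did not pass. Among all 17977 tested genes 15.6% were lower and 34.9% changed in either direction. In iTregs 6 of the 9 were lower, against 11.4% of all tested genes lower and 25.4% changed in either direction, and Tcf7, Bach2 and Foxp1 did not pass. None was higher in the mutant, where 19.3% of all tested genes were higher in nTregs and 14.0% in iTregs. The median log2 fold change of the 9 genes was -0.78 in nTregs and -0.47 in iTregs, against 0.04 over all tested genes in each. All 9 had 3 mutant libraries below all 3 WT libraries in nTregs and again in iTregs, including those that did not pass. The share of all tested genes that separate this way was not computed, so this count is no result about the 9.

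Klf3 (ENSMUSG00000029178, chr5:64803388-64832901, plus strand, GRCm38), the CtBP-recruiting repressor of the Krüppel-like family, showed the largest genotype difference of the 9 in nTregs. It had 103, 127 and 134 CPM in mutant nTregs, against 287, 274 and 261 CPM in WT nTregs. The mutant libraries together reached 44.3% of the WT mean, and the highest mutant library held less than the lowest WT one by a wide margin. The log2 fold change was -1.18 ± 0.12 (SE, n = 3 each, edgeR adjusted p = 9.4e-05), and -1.04 without mutant library 1. In iTregs it had 56.6, 69.8 and 56.1 CPM in the mutant, against 107, 102 and 86.6 CPM in WT. That fall was -0.70 ± 0.12 (edgeR adjusted p = 0.00216).

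Klf2 (ENSMUSG00000055148, chr8:72319033-72321656, plus strand), the factor upstream of S1pr1, showed the reverse order of kinds. It had 20.0, 23.3 and 15.5 CPM in mutant iTregs, against 50.6, 49.0 and 41.6 CPM in WT iTregs. Mutant iTregs therefore held 41.6% of the WT mean, the deepest fall of the 9 genes in iTregs, with a log2 fold change of -1.27 ± 0.15 (edgeR adjusted p = 0.000531). In nTregs it had 40.1, 53.7 and 55.1 CPM in the mutant, against 67.4, 55.2 and 63.7 CPM in WT. Mutant libraries 2 and 4 came close to the lowest WT library, at 55.1 against 55.2 CPM, and the log2 fold change of -0.32 (95% interval -0.65 to 0.00, edgeR adjusted p = 0.112) did not pass. Without mutant nTreg library 1 it was -0.16 ± 0.14 (edgeR adjusted p = 0.396).

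S1pr1 (ENSMUSG00000045092, chr3:115710433-115715072, minus strand), the receptor for sphingosine 1-phosphate that lets T cells leave lymph nodes and thymus, fell in both kinds of Treg. It had 189, 199 and 226 CPM in mutant nTregs, against 298, 291 and 334 CPM in WT nTregs. It had 81.0, 89.4 and 70.8 CPM in mutant iTregs, against 141, 122 and 111 CPM in WT iTregs. The genotypes did not overlap in either kind, though in WT iTregs the libraries ran from 111 to 141 CPM, a wider range than the gap of the genotypes, from 89.4 to 111 CPM. The log2 fold changes were -0.59 ± 0.11 in nTregs (edgeR adjusted p = 0.00169) and -0.63 ± 0.11 in iTregs (edgeR adjusted p = 0.00241).

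Lef1 (ENSMUSG00000027985, chr3:131110471-131224356, plus strand) fell in both kinds. It had 70.4, 75.2 and 93.7 CPM in mutant nTregs, against 128, 116 and 129 CPM in WT nTregs, and the log2 fold change was -0.64 ± 0.10 (edgeR adjusted p = 0.000608). In iTregs it had 162, 158 and 144 CPM in the mutant, against 219, 217 and 206 CPM in WT, a fold change of -0.47 ± 0.10 (edgeR adjusted p = 0.00551). Its partner Tcf7 (ENSMUSG00000000782, chr11:52252371-52283014, minus strand) differed less. Tcf7 had 267, 357 and 402 CPM in mutant nTregs, against 437, 415 and 469 CPM in WT nTregs. Mutant library 1 was well below the other two, and library 4 came near the lowest WT library. The log2 fold change of -0.36 ± 0.12 passed (edgeR adjusted p = 0.0305) but was -0.19 ± 0.08 without mutant nTreg library 1 (edgeR adjusted p = 0.0954). The call was also lost without WT nTreg library 1 (adjusted p = 0.069) or 3 (0.079), with scaling by library size alone (0.075) and with the 6 nTreg libraries fitted alone (0.086). In iTregs Tcf7 had 310.3, 325 and 332 CPM in the mutant, against 415, 393 and 366 CPM in WT, and the fold change of -0.28 (95% interval -0.53 to -0.02, edgeR adjusted p = 0.0991) did not pass. It passed in iTregs without mutant nTreg library 1, which enters the shared estimate of spread, at -0.32 (edgeR adjusted p = 0.00411), and with the 6 iTreg libraries alone at -0.32 (0.007).

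**Figure D2:**
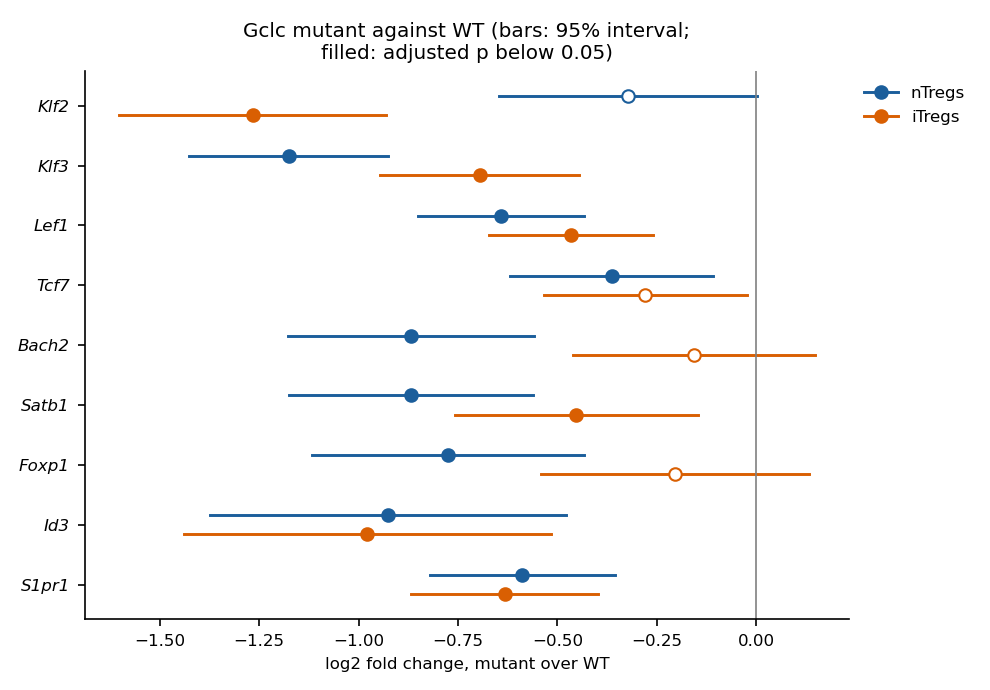
Log2 fold change of mutant over WT for each of the 9 genes in nTregs and iTregs, with points at the edgeR estimate (filled where adjusted p is below 0.05), bars for the 95% interval, and a vertical line at 0. All 18 points lie below 0, from -1.27 for Klf2 in iTregs to -0.16 for Bach2 in iTregs, and the intervals of Klf2 in nTregs and of Bach2 and Foxp1 in iTregs reach 0.

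Bach2 (ENSMUSG00000040270, chr4:32238804-32586108, plus strand), the leucine zipper repressor of effector genes, had 59.4, 99.1 and 95.8 CPM in mutant nTregs, against 156, 150.3 and 158 CPM in WT nTregs. The WT libraries spanned a narrow range, and mutant library 1 was lowest by far. The log2 fold change was -0.87 ± 0.14 (edgeR adjusted p = 0.000966), and -0.64 without mutant library 1 (edgeR adjusted p = 4.3e-05). In iTregs it had 266, 284 and 270.4 CPM in the mutant, against 310.4, 316 and 289 CPM in WT. The ranges did not overlap but lay close, and the fold change of -0.16 (95% interval -0.46 to 0.15, edgeR adjusted p = 0.438) did not pass. It was -0.20 and passed with the 6 iTreg libraries alone (edgeR adjusted p = 0.028) and without mutant nTreg library 1 (0.0135).

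Satb1 (ENSMUSG00000023927, chr17:51736187-51833290, minus strand), the chromatin organiser, had 202, 123 and 149 CPM in mutant nTregs, against 317, 261 and 287 CPM in WT nTregs. It was the only gene of the 9 for which mutant nTreg library 1 was the highest of its group, since that library was the lowest for the other 8. The log2 fold change was -0.87 ± 0.14 (edgeR adjusted p = 0.000929), and -1.06 without mutant library 1. In iTregs it had 129.8, 138 and 119 CPM in the mutant, against 186, 174 and 169.9 CPM in WT. That fall of -0.45 ± 0.14 passed with all libraries (edgeR adjusted p = 0.0347), and was lost with any of the 6 iTreg libraries left out, at adjusted p from 0.054 to 0.116.

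Foxp1 (ENSMUSG00000030067, chr6:98925338-99522721, minus strand) had 86.8, 141 and 144 CPM in mutant nTregs, against 217, 206 and 214 CPM in WT nTregs, with mutant library 1 again the lowest. The log2 fold change was -0.78 ± 0.16 (edgeR adjusted p = 0.00307), and -0.55 without mutant library 1. In iTregs it had 239, 253 and 190.1 CPM in the mutant, against 270.2, 259.5 and 257 CPM in WT. Mutant library 2 lay just under the lowest WT library and the fold change of -0.20 (95% interval -0.54 to 0.13, edgeR adjusted p = 0.359) did not pass, while without mutant nTreg library 1 it was -0.25 and did (0.0318). Id3 (ENSMUSG00000007872, chr4:136143497-136145755, plus strand), the E protein inhibitor, had the lowest counts of the 9. It had 6.89, 12.6 and 10.8 CPM in mutant nTregs, against 15.8, 19.2 and 22.8 CPM in WT nTregs, a log2 fold change of -0.93 ± 0.21 (edgeR adjusted p = 0.00493). It had 5.38, 5.71 and 8.01 CPM in mutant iTregs, against 13.1, 12.2 and 12.4 CPM in WT iTregs, a log2 fold change of -0.98 ± 0.21 (edgeR adjusted p = 0.00734).

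**Figure D3:**
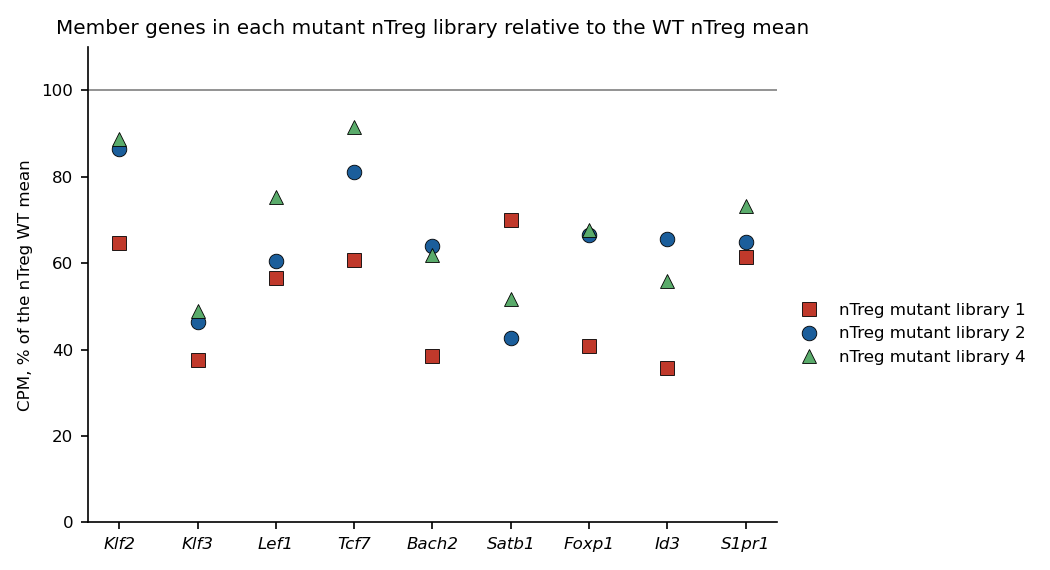
Level of each of the 9 genes in mutant nTreg libraries 1, 2 and 4, as a percentage of the mean of the 3 WT nTreg libraries, from 0, with a line at 100. Library 1 has a median of 56.6%, library 2 of 64.8% and library 4 of 67.7%, and all points lie below 100.

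The mutant nTreg libraries were shifted unequally. Across the 9 genes library 1 held 35.8% to 69.9% of the WT mean, library 2 held 42.8% to 86.4% and library 4 held 48.8% to 91.4%. The medians were 56.6%, 64.8% and 67.7%, and library 1, the lowest, was also the library with the highest sum of CD8 T and NK cell markers. The mutant iTreg libraries had medians of 73.6%, 74.0% and 67.5% of the WT iTreg mean. Without mutant nTreg library 1, 7 of the 9 genes were lower in mutant nTregs, with Tcf7 the loss, against 11.2% of all tested genes (15.6% with all libraries).

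The genotype effects of nTregs and iTregs were then set against each other by the interaction term of the same fit, where 13.3% of all tested genes differed, 7.18% with a more positive effect in nTregs and 6.12% with a more negative one. Of the 9 genes, Klf2 and Bach2 passed, in opposite directions. Klf2 fell less in nTregs, at -0.32 against -1.27 in iTregs, a difference of 0.94 ± 0.21 (95% interval 0.48 to 1.41, edgeR adjusted p = 0.0157). Bach2 fell more in nTregs, at -0.87 against -0.16 in iTregs, a difference of -0.71 ± 0.20 (95% interval -1.14 to -0.28, edgeR adjusted p = 0.0359). Klf2 passed under all 18 alternative settings, at adjusted p from 0.0012 to 0.0484, while Bach2 did not pass in 11 of the 18. Bach2 lost the call with any WT library, or mutant iTreg library 1 or 2, left out, at adjusted p from 0.0604 to 0.0797, and its difference was -0.44 without mutant nTreg library 1 (edgeR adjusted p = 0.00507).

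For the other 7 genes the difference did not pass. Klf3, at -1.18 in nTregs and -0.70 in iTregs, had a difference of -0.48 (95% interval -0.83 to -0.13, edgeR adjusted p = 0.0677), and passed without mutant nTreg library 4 (0.0426). Foxp1 had -0.57 (-1.05 to -0.09, adjusted p = 0.103) and Satb1 -0.42 (-0.85 to 0.01, 0.181), which passed without mutant nTreg library 1 at -0.56 (0.0117). The intervals of these genes leave room for a larger effect in nTregs. For S1pr1 the difference was 0.04 (95% interval -0.29 to 0.37, edgeR adjusted p = 0.896), for Tcf7 -0.08 (-0.44 to 0.28, 0.79), for Lef1 -0.18 (-0.47 to 0.12, 0.415) and for Id3 0.05 (-0.58 to 0.69, 0.946). Each of the intervals of S1pr1, Tcf7, Lef1 and Id3 admits differences of either sign, and that of Id3 is the widest.

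Comparing iTregs with nTregs of the same genotype split the 9 genes into those higher and those lower after culture. In WT cells 5 of the 9 were lower in iTregs (Klf2, Klf3, Satb1, Id3 and S1pr1) and Lef1 and Bach2 were higher, where 35.7% of all tested genes were lower, 33.7% higher and 69.5% changed in either direction. In mutant cells 4 were lower (Klf2, Klf3, Id3 and S1pr1) and Lef1, Bach2 and Foxp1 were higher, against 35.0% lower, 33.2% higher and 68.2% in either direction over all tested genes. The counts are near these backgrounds, so the number of genes called is no result about the 9. The kinds also differ in how the cells were obtained and in the B cell markers given above. In iTregs myeloid markers summed to at most 8.26 CPM and erythroid markers to at most 0.11 CPM, below every nTreg library. The CD8 T and NK cell sums above differed between the kinds in mutant cells and overlapped in WT cells. Single markers did differ in WT cells, where the median log2 fold change of the 13 in iTregs over nTregs was -2.11. Of the 13, 4 were lower and 1 higher, and 9 and 3 without mutant nTreg library 1 (37.5% and 34.7% of all tested genes). Xcl1 made up much of the WT iTreg sum, at 59.9 to 86.9 CPM against 3.81 to 4.56 in WT nTregs. These differences cannot be told apart from the kind of Treg. The WT and mutant groups here are those of the genotype comparisons, so the values below are not independent of those above.

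S1pr1 and Klf3 had the largest falls in WT iTregs. S1pr1 averaged 125 ± 15.1 CPM in WT iTregs and 308 ± 23.1 CPM in WT nTregs (SD, n = 3 each), with a fold change on the log2 scale of -1.30 ± 0.11 (edgeR adjusted p = 4.63e-07). In mutant cells it averaged 80.4 ± 9.27 CPM in iTregs and 205 ± 18.95 CPM in nTregs, a fold change of -1.35 ± 0.11 (edgeR adjusted p = 3.93e-07). Klf3 averaged 98.5 ± 10.5 CPM in WT iTregs and 274 ± 13.0 CPM in WT nTregs, at -1.47 ± 0.12 (edgeR adjusted p = 2.77e-07). The mutant values were 60.8 ± 7.74 CPM in iTregs and 121 ± 16.3 CPM in nTregs, at -0.99 ± 0.12 (edgeR adjusted p = 8.95e-06). Neither gene's step between kinds differed between the genotypes past the threshold, by the interaction test above.

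Klf2 and Bach2 had larger steps between kinds in the mutant. Klf2 averaged 19.6 ± 3.93 CPM in mutant iTregs and 49.6 ± 8.27 CPM in mutant nTregs, at -1.34 ± 0.15 (edgeR adjusted p = 8.24e-06). In WT cells it averaged 47.1 ± 4.81 CPM in iTregs and 62.1 ± 6.23 CPM in nTregs, at -0.40 ± 0.15 (edgeR adjusted p = 0.0298). The WT call was lost without WT iTreg library 2 or 3 or WT nTreg library 1 or 3, at adjusted p from 0.0524 to 0.117. Bach2 was the gene most increased in iTregs, with 273 ± 9.11 CPM in mutant iTregs and 84.8 ± 22.0 CPM in mutant nTregs, at 1.69 ± 0.14 (edgeR adjusted p = 6.24e-07). In WT cells it had 305 ± 14.2 CPM in iTregs and 155 ± 4.07 CPM in nTregs, at 0.98 ± 0.14 (edgeR adjusted p = 5e-05). The tests of these unequal steps are those of the genotype difference above.

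**Figure D4:**
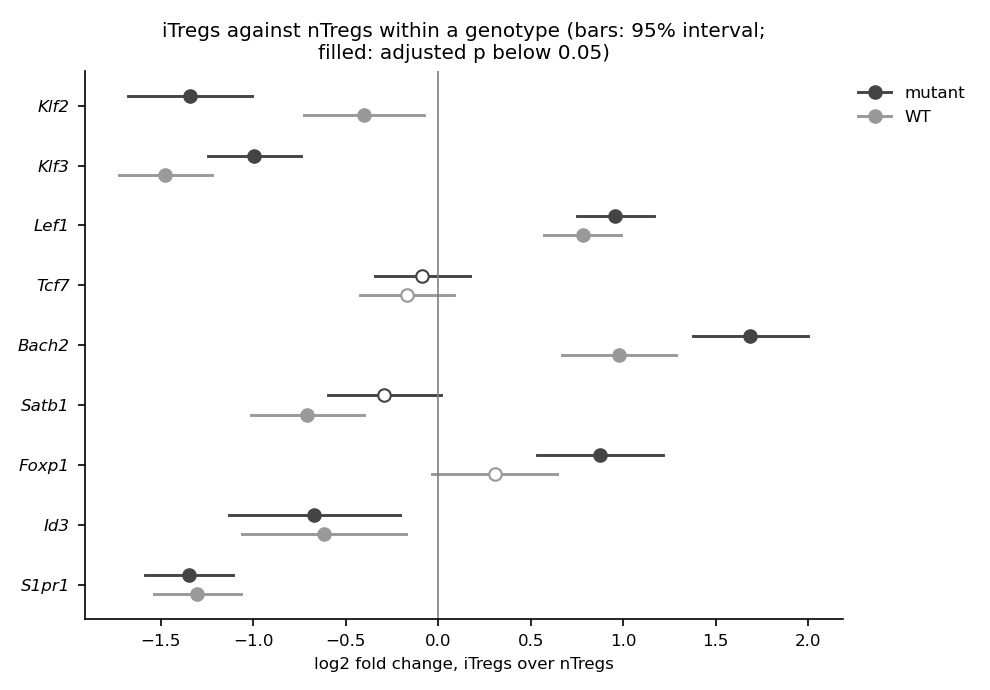
Log2 fold change of iTregs over nTregs for each of the 9 genes in mutant and in WT cells, with points at the edgeR estimate (filled where adjusted p is below 0.05), bars for the 95% interval and a vertical line at 0. Lef1, Bach2 and Foxp1 lie to the right of 0 in both genotypes, up to 1.69 for Bach2 in mutant cells, and Klf3 and S1pr1 lie farthest to the left in WT cells, at -1.47 and -1.30.

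Lef1 was higher in iTregs of both genotypes, at 155 ± 9.30 CPM in mutant iTregs against 79.8 ± 12.3 in mutant nTregs (0.96 ± 0.10, edgeR adjusted p = 2.53e-06). In WT cells it was at 214 ± 7.10 CPM in iTregs against 124 ± 7.12 in nTregs (0.78 ± 0.10, edgeR adjusted p = 1.21e-05). Tcf7, its partner, did not follow: the fold change of iTregs over nTregs was -0.09 in mutant cells (95% interval -0.34 to 0.17, edgeR adjusted p = 0.534) and -0.17 in WT cells (-0.42 to 0.09, 0.214). Without mutant nTreg library 1 Tcf7 was lower in iTregs of both genotypes, at -0.31 in mutant cells (edgeR adjusted p = 0.00305) and -0.18 in WT cells (0.0383). Foxp1 was higher in mutant iTregs, at 227 ± 33.1 CPM against 124 ± 32.1 in mutant nTregs (0.88 ± 0.16, edgeR adjusted p = 0.000306). In WT cells Foxp1 was at 262 ± 7.16 CPM in iTregs against 212 ± 5.67 in nTregs, and 0.30 did not pass (95% interval -0.03 to 0.64, edgeR adjusted p = 0.0978) although it did without mutant nTreg library 1 (0.00521). Satb1 averaged 129 ± 9.38 CPM in mutant iTregs and 158 ± 39.9 CPM in mutant nTregs, with overlapping libraries and no call (-0.29, 95% interval -0.60 to 0.01, edgeR adjusted p = 0.0823), though it passed without mutant nTreg library 2 (0.00718), with RLE scaling (0.0474) and with DESeq2 (0.0355). In WT cells Satb1 averaged 176 ± 8.28 CPM in iTregs and 288 ± 27.7 CPM in nTregs, and fell (-0.71 ± 0.14, edgeR adjusted p = 0.000618). Id3 fell in iTregs of both genotypes, by 0.67 ± 0.21 on the log2 scale in mutant cells (edgeR adjusted p = 0.0138) and by 0.62 ± 0.20 in WT cells (0.0163). The mutant Id3 call was lost without mutant iTreg library 1 or 2 or mutant nTreg library 2 (adjusted p from 0.0529 to 0.0797) and the WT call without WT nTreg library 3 (0.0756).

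Set against each other per kilobase of counted exon (RPKM), Tcf7 had the highest level of the 9 genes in every group and Id3, on average, the lowest. The length is that of all counted exons of a gene, from 1791 bases for Id3 to 19027 for Satb1, and the order depends on it. In WT nTregs Satb1 averaged 288 CPM and Klf2 62.1 CPM, the reverse of their order in RPKM. Tcf7 stood at 130 RPKM in mutant nTregs and 168 in WT nTregs, and at 123 in mutant iTregs and 149 in WT iTregs. In nTregs S1pr1 came next, at 67.2 RPKM in the mutant and 101 in WT, and Klf2 after it, at 26.9 RPKM in the mutant and 33.6 in WT. In WT nTregs Klf3 was at 24.4 RPKM, above Bach2, Foxp1, Satb1 and Lef1, whose libraries overlapped between 14.2 and 15.6 RPKM on average, and Id3 was apart at 10.7 RPKM. In mutant nTregs Klf3 (10.8 RPKM), Lef1 (9.08), Foxp1 (9.01), Bach2 (8.53), Satb1 (8.30) and Id3 (5.64) formed a run in which each overlapped its neighbour. The step that set Klf3 apart from that run in WT nTregs was not seen in mutant nTregs.

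In iTregs Bach2 moved up the order. In mutant iTregs Bach2 (27.5 RPKM) and S1pr1 (26.4 RPKM) overlapped in second place, ahead of Lef1 (17.6) and Foxp1 (16.5), which also overlapped. Klf2 (10.6), Satb1 (6.78), Klf3 (5.41) and Id3 (3.56 RPKM) followed with no overlap. In WT iTregs S1pr1 (40.9 RPKM) stood above Bach2 (30.7 RPKM) with no overlap. Klf2 (25.5) and Lef1 (24.3) overlapped after them, then came Foxp1 (19.1), Satb1 (9.27) overlapping with Klf3 (8.76), and Id3 (7.01 RPKM). Klf2 thus stood above Foxp1 in WT iTregs and below it in mutant iTregs.

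**Figure D5:**
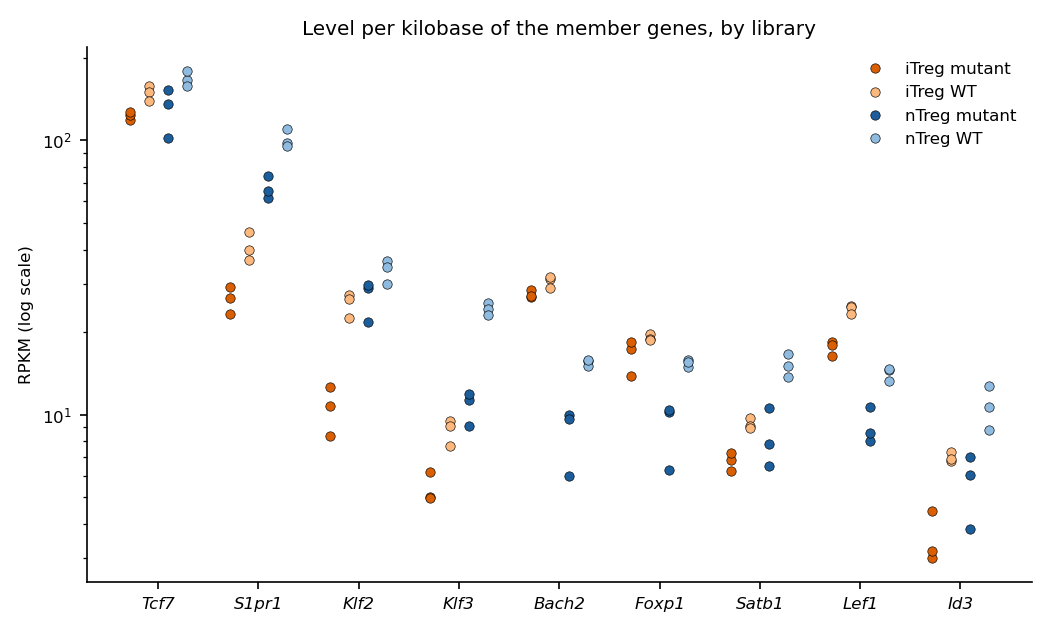
Levels of the 9 genes in RPKM (CPM per kilobase of counted exon, log axis), with a dot per library, for mutant iTregs, WT iTregs, mutant nTregs and WT nTregs, with genes ordered by their WT nTreg mean. Tcf7 is highest in every group, at 123 to 168 RPKM on average, and Id3 has the lowest mean, at 3.56 to 10.7 RPKM.

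The wider program was read from lists of genes that share the roles of the 9, written from general knowledge. Of 24 other quiescence genes, 18 were lower in mutant nTregs and Myb alone was higher, where 15.6% of all tested genes were lower and 19.3% higher, and the median log2 fold change was -0.44 against 0.04 over all tested genes. Without mutant nTreg library 1 the count was 13 lower and 1 higher, against 11.2% lower and 18.3% higher over all tested genes. Tob1, an antiproliferative factor, averaged 11.6 ± 1.09 CPM in mutant nTregs and 27.0 ± 1.5004 CPM in WT nTregs, at -1.22 ± 0.09 (edgeR adjusted p = 4.19e-05). Cdkn1b, which encodes the cell-cycle inhibitor p27, averaged 146 ± 12.1 CPM in mutant nTregs and 263 ± 6.64 CPM in WT nTregs (-0.85 ± 0.08, edgeR adjusted p = 0.000101). Foxo1, the forkhead factor that drives Klf2 and Il7r, stood at 152, 179.7 and 194 CPM in mutant nTregs and 294, 299 and 321 CPM in WT nTregs (-0.80 ± 0.09, edgeR adjusted p = 0.000171). In these 3 genes, named for their small p, the mutant libraries lay below the WT ones. In mutant iTregs 8 of the 24 were lower and 0 higher, with a median of -0.15, where 11.4% of all tested genes were lower and 14.0% higher. Those with the smallest p were Ets1 (-0.42, edgeR adjusted p = 0.0105), Dgka (-0.48, 0.0145), Tsc2 (-0.24, 0.0174) and Pik3ip1 (-0.81, 0.0194), and 12 were lower when mutant nTreg library 1 was left out of the shared fit, where 16.8% of all tested genes were lower. The genotype effect was more negative in nTregs than in iTregs for 6 of the 24 (6.12% of all tested genes), led by Tob1 with a difference of -1.30 (edgeR adjusted p = 0.00144) and Foxo1 with -0.79 (0.00369), and more positive for Myb.

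Of 20 other genes of lymphoid homing and egress, 4 were lower in mutant nTregs (Itga4 and Rasgrp2 among them) and Gnai2 was higher. These counts were near the 15.6% lower and below the 19.3% higher of all tested genes. Without mutant nTreg library 1, 4 were lower and 2 higher, against 11.2% lower and 18.3% higher over all tested genes. In mutant iTregs 11 were lower and 0 higher, where 11.4% of all tested genes were lower and 14.0% higher. The medians were -0.13 in nTregs and -0.23 in iTregs, against 0.04 over all tested genes in each. Rasgrp2, an exchange factor for the adhesion regulator Rap1, averaged 13.4 ± 3.63 CPM in mutant iTregs and 41.8 ± 6.50 CPM in WT iTregs (-1.64 ± 0.17, edgeR adjusted p = 0.000244). In nTregs Rasgrp2 was at -0.47 ± 0.16 (edgeR adjusted p = 0.035), a call lost in 6 of 19 alternatives. S1pr4, a relative of S1pr1, averaged 8.85 ± 0.28 CPM in mutant iTregs and 15.6 ± 1.49 CPM in WT iTregs (-0.81 ± 0.09, edgeR adjusted p = 0.000374). The genotype effect was more negative in iTregs than in nTregs for 7 of the 20 (7.18% of all tested genes), with Coro1a (0.56, edgeR adjusted p = 0.00579), S1pr4 (0.69, 0.00669), Itgb2 (0.54, 0.00789) and Rasgrp2 (1.16, 0.00887) at the smallest p. A positive difference here has the sign of that of Klf2.

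Between kinds, 17 of the 24 quiescence genes were lower in WT iTregs than in WT nTregs and 2 were higher (Runx1 and Myb), where 35.7% of all tested genes were lower and 33.7% higher. In mutant cells 13 were lower and 5 higher, where 35.0% of all tested genes were lower and 33.2% higher. Without mutant nTreg library 1, 17 of the quiescence genes were lower and 2 higher, against 39.1% lower and 31.5% higher over all tested genes. Il7r, the interleukin-7 receptor chain of resting T cells, averaged 32.1 ± 4.28 CPM in WT iTregs and 408 ± 114 CPM in WT nTregs (-3.67 ± 0.23, edgeR adjusted p = 4.68e-08). Of the homing genes 15 of 20 were lower in WT iTregs and Ccr7 and Sphk1 were higher, against the same shares of all tested genes. Sphk1 was low in both kinds, at 0.86 to 1.03 CPM in WT iTregs and at most 0.03 CPM in WT nTregs. Ccr7, the receptor for lymph node chemokines, averaged 371 ± 16.9 CPM in WT iTregs and 116 ± 8.46 CPM in WT nTregs (1.68 ± 0.11, edgeR adjusted p = 4.6e-08). Ccr7 thus ran against S1pr1 between the kinds, and with Lef1 and Bach2.

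Profiles over the 12 libraries were compared by the root mean square (RMS) difference of centred log2 CPM among 9772 genes of at least 5 CPM, as a description. These libraries share depth, group and preparation. Closest to Klf2 were Trib2 (RMS difference 0.163) and Pacsin1 (0.194), against a median of 0.733 from Klf2 over all genes compared. This median differed by gene, from 0.371 for Tcf7 to 0.850 for Klf3, so the values below are not on 1 scale. Closest to Klf3 were Zfp36 (0.148) and Heca (0.164), to S1pr1 Tmem63a (0.0913) and Plekhn1 (0.0991), to Lef1 Sh3bp5 (0.117) and Siah1a (0.123), and to Tcf7 Zfp592 (0.0563) and Pogz (0.0826). Closest to Bach2 were Tdrp (0.151) and Ubash3b (0.158), to Satb1 Enpp4 (0.182) and Klf7 (0.183), to Foxp1 Itga10 (0.134) and Trio (0.140), and to Id3 Rgl2 (0.201) and Clcf1 (0.208). Among the 9 genes themselves Lef1 and Foxp1 were the closest pair at 0.220 and Klf3 and S1pr1 the next at 0.237, while Bach2 and S1pr1 were the farthest apart at 1.36.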

How the data were processed

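Bulk RNA-seq of 12 libraries was used as deposited gene counts, whole numbers, 1 file per library. Per the labels' protocols, RNA isolation used a NucleoSpin kit and library preparation the TruSeq Stranded mRNA kit. Per the submitters' processing notes, bcl2fastq 2.18.0.12, STAR 2.5.2b on mm10 and Subread 1.5.2 were used. Per the file headers, the authors counted with featureCounts on Ensembl gene models of GRCm38, reverse-stranded, over exons by gene, with multi-mapping reads kept, so values of genes with close copies are uncertain. Trimming is not given in the sources used here. Of 49671 genes 49326 were matched to a symbol.

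The counts were tested with edgeR 4.0.16 (R 4.3.3): filterByExpr (17977 genes), TMM scaling, a group-means design with 4 groups and 8 residual degrees of freedom, glmQLFit and the two-sided quasi-likelihood F-test, with Benjamini-Hochberg adjustment over all tested genes at 0.05. The 5 comparisons were mutant against WT in each kind, the difference of these (nTregs minus iTregs), and iTregs against nTregs in each genotype. CPM used TMM library sizes, and RPKM divided CPM by the gene length in the files, for description alone. Depth was 28707579 to 39886130 counts per library. Libraries of a group differed by more than sampling noise (chi-square per degree of freedom 4.20 to 47.2). The fit was tested on simulated counts.

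The alternatives were RLE scaling, library size alone, no filter, 1 CPM in at least 3 libraries, DESeq2 1.42.0, the replicate number as a block, the compared libraries alone (not for the difference) and each library left out. The 9 genes, the gene lists and the tests were chosen with earlier results of these data known. Genes named were the 9, up to 4 of each list with the smallest p in a comparison, the 2 most alike in profile to each of the 9, and Gclc and Foxp3. Other list genes named beside a count of 5 or fewer (Myb, Gnai2, Runx1, Sphk1, Klf4 and S1pr3 among them) were chosen after their values were seen. Not every gene that this rule admits is reported here. Promoter windows came from a RefSeq table (GRCm38.p6).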

Additional observations from a re-analysis of the deposited data

Results flagged for a closer look

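The effect of the Gclc mutation differed between the 2 kinds of Treg for Klf2 and Bach2, by the interaction term. For Klf2 the log2 fold change in nTregs minus that in iTregs was 0.94 (edgeR adjusted p = 0.0157). The Klf2 effect passed in iTregs, at -1.27 (edgeR adjusted p = 0.000531), and did not in nTregs, at -0.32 (0.112). For Bach2 the difference was -0.71 (edgeR adjusted p = 0.0359), and the call was lost in 11 of the 18 alternatives. It was -0.44 without mutant nTreg library 1 (edgeR adjusted p = 0.00507), the library with the most CD8 T and NK cell marker RNA. The part of those cells in the Bach2 difference was not tested.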

How the results depend on the processing

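Of the 9 genes, 8 were lower in mutant nTregs (7 to 8 with a library left out, where 10.9% to 16.6% of all tested genes were lower) and 6 in mutant iTregs (5 to 9, where 5.41% to 16.8% were lower; the 9 came without mutant nTreg library 1, at 16.8%). The number with a more negative effect in nTregs was 1 as reported, where 6.12% of all tested genes had one. It was 0 with library size alone (2.88% of all tested genes), 2 with no filter (3.10%) and 0 with the 1 CPM filter (5.83%). With a library left out it was 0 to 2 (2.68% to 7.12%). In WT iTregs against nTregs the number lower was 5, where 35.7% of all tested genes were lower. It was 3 to 6 with a library left out (32.8% to 37.5% of all tested genes), with 3 without WT nTreg library 3 (33.4%). Signs turned for differences that did not pass as reported: with a library left out the genotype difference ranged from -0.072 to 0.17 for S1pr1, -0.16 to 0.33 for Id3 and -0.23 to 0.14 for Tcf7 (0.055 with library size alone), and Tcf7 in mutant iTregs against nTregs from -0.31 to 0.053. The cause was not tested. Library size alone moved the median of all genes by 0.14 for the difference and by -0.19 for mutant iTregs against nTregs. With it, the share of all calls that were higher was 65.4% in nTregs (55.4% with TMM), 35.5% in iTregs (55.2%, and 45.0% with the 1 CPM filter), 82.2% for the difference (54.0%, and 65.6% with the 1 CPM filter) and 36.0% for mutant iTregs against nTregs (48.7%).

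With the replicate number as a block, 0 of the 9 had a more negative effect in nTregs, against 3.62% of all tested genes. Bach2 was then at -0.73 (edgeR adjusted p = 0.0525). Deviations of same-numbered libraries from their group means, over all tested genes, had correlations of -0.064 to 0.050. Such values cannot settle whether same-numbered libraries share a mouse or a preparation, which the sources used here do not state. The block also ended the calls of Satb1 in iTregs (-0.42, adjusted p = 0.066) and of Klf2 in WT iTregs against nTregs (-0.41, 0.051). The lowest count of the 9 in a library was 182, so each level rests on at least that many counts.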

Other observations

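Among other members of the same families, 17 of 21 listed genes were tested. In mutant nTregs 5 were lower (Klf6, Klf7, Klf13, Bach1 and Id1) and Id2 was higher, where 15.6% of all tested genes were lower and 19.3% higher. Id1 was very low, at 0.03 to 0.21 CPM in mutant nTregs and 0.22 to 0.54 CPM in WT nTregs. Klf7 fell with Klf3, by 0.82 on the log2 scale (edgeR adjusted p = 0.000162). Id2, which like Id3 blocks E proteins and is known for effector T cells, read 119.9, 69.8 and 60.4 CPM in mutant nTregs against 40.7, 48.7 and 35.6 CPM in WT nTregs (1.0005 ± 0.21, edgeR adjusted p = 0.00403), with mutant library 1 the highest. In mutant iTregs 3 were lower (Bach1, Foxp4 and S1pr4) and 4 higher (Klf4, Klf6, Id1 and S1pr3), where 11.4% of all tested genes were lower and 14.0% higher. Klf4 and S1pr3 were low, at most 2.19 and 3.98 CPM in any iTreg library. Klf6 averaged 138 CPM in mutant iTregs and 87.2 CPM in WT iTregs (0.66 ± 0.09, edgeR adjusted p = 0.000793), and its genotype effect was more negative in nTregs, with a difference of -0.96 (edgeR adjusted p = 0.002). Without mutant nTreg library 1, 18 of the listed genes were tested. Then 3 were lower and 2 higher in mutant nTregs, against 11.2% and 18.3% of all tested genes. In mutant iTregs 5 were lower and 4 higher, against 16.8% and 17.2% of all tested genes.

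Of 23 partners of the 9 proteins 5 were lower and 0 higher in mutant nTregs, against 15.6% lower and 19.3% higher over all tested genes. Without mutant nTreg library 1, 2 were lower and 1 higher (11.2% and 18.3% over all tested genes). Among the 5 were Tle1 (-0.80, 4.22 against 7.37 CPM on average) and Tle4 (-0.41), which encode Groucho corepressors. Of the other listed TLE genes, Tle3 stood at 137 to 141 CPM in mutant nTregs against 127 to 139 in WT nTregs. Tle5 stood at 131 to 134 CPM against 125 to 155, so the genotypes overlapped for both. Tle2 was at most 1.49 CPM in nTregs. In mutant iTregs 7 were lower and 1 higher, where 11.4% and 14.0% of all tested genes were, with Bcl9l, a beta-catenin cofactor, at -1.48 (edgeR adjusted p = 0.000442). Of 18 regulators of effector T cells 6 were higher and 2 lower in mutant nTregs (8 and 3 without mutant nTreg library 1) and 4 were higher and 1 lower in mutant iTregs (6 and 1). Over all tested genes 19.3% were higher and 15.6% lower in nTregs (18.3% and 11.2% without that library), and 14.0% and 11.4% in iTregs (17.2% and 16.8%). Bhlhe40, a regulator of cytokine genes, read 204, 76.9 and 83.2 CPM in mutant nTregs against 26.3, 30.5 and 27.9 CPM in WT nTregs (2.10 ± 0.32), again highest in library 1. Bcl6, the factor of follicular T cells, was at -0.75 in nTregs (edgeR adjusted p = 0.000707). In mutant nTregs 11 of the 13 markers of CD8 T and NK cells were higher, and 9 without library 1, and of the 16 T cell and Treg markers 5 were lower and 0 higher. The part of other cells in the Id2 and Bhlhe40 values was not tested.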
